A study of Mus musculus with 6 samples.

Results

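The genes described here are 10 genes of the club and secretory cells that line the airways: Scgb1a1, Scgb3a1, Scgb3a2, Cyp2f2, Bpifa1, Bpifb1, Muc5b, Muc5ac, Aldh1a1 and Cbr2. They were chosen by gene symbol, and all 10 were found among the 47069 genes of the count table. Whole lungs of adult mice were collected at ZT10, late in the light phase, and total RNA of each mouse was sequenced as a separate stranded mRNA library. The WT group held 3 C57BL/6J mice (WT4, WT5 and WT6), and the Zpbp2 KO group held 3 mice on the C57BL/6J background (KO4, KO5 and KO6) that lack the 5′ part of Zpbp2 with its promoter as a germline deletion. KO and WT mice were raised in the same colony, and the sex of each mouse was not given in the sources used here. The comparison of KO with WT lungs asked which lung transcripts differ when this stretch of the asthma-linked Zpbp2-Ormdl3 region is absent.

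Club cells are the non-ciliated secretory cells of the conducting airways. They coat the airway surface with small secreted proteins, detoxify inhaled chemicals with cytochrome P450 and carbonyl-reducing enzymes, and serve as a source of new airway cells after injury. In the mouse, secretory cells of the trachea and large bronchi make more of the mucins, of the BPI-fold proteins and of Scgb3a1, while Scgb1a1, Scgb3a2 and Cyp2f2 mark club cells along the whole airway tree down to the small bronchioles. A whole-lung library mixes all of these cells with alveoli, vessels and blood, so that fewer cells of a type and less RNA per cell cannot be told apart.

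The 6 libraries held between 19981428 and 46796908 counts on genes, with KO5 the deepest, and 3 counts, taken as the floor of detection for counting error only, amounted to between 0.0629 and 0.148 CPM. CPM here are read counts scaled to library size with TMM factors. The deleted gene itself, Zpbp2, was scarcely transcribed in lung at any genotype, with 1, 2 and 2 counts per WT mouse and 0 counts per KO mouse, at or below that floor in every lung. The lungs carried the markers of their labelled tissue, with the 10 type 2 alveolar genes summing to between 18074 and 24812 CPM. KO5 stood apart from the other mice, because 10 B cell genes summed to 947 CPM in it, against 119 to 134 CPM in the WT mice and 231 and 271 CPM in KO4 and KO6. Xist lay between 715 and 994 CPM in the 6 lungs, and the Y-linked Ddx3y was at most 0.189 CPM.

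All 10 genes passed the filter on low counts and were tested. The 5 most abundant, Scgb1a1, Cbr2, Cyp2f2, Aldh1a1 and Scgb3a2, varied between 1.61-fold and 2.17-fold from the lowest to the highest mouse, whereas Bpifa1, Bpifb1, Scgb3a1, Muc5b and Muc5ac varied between 2.9-fold and 488-fold. In the KO lungs 1 gene fell past the test's threshold, Aldh1a1, with a fold change of 0.743. KO5 had the lowest value of all 6 mice in 10 of the 10 genes, where it was the lowest mouse in 22.3% of all genes tested. This split into steady and variable genes was made after the values were seen and carries no test.

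**Figure D1:**
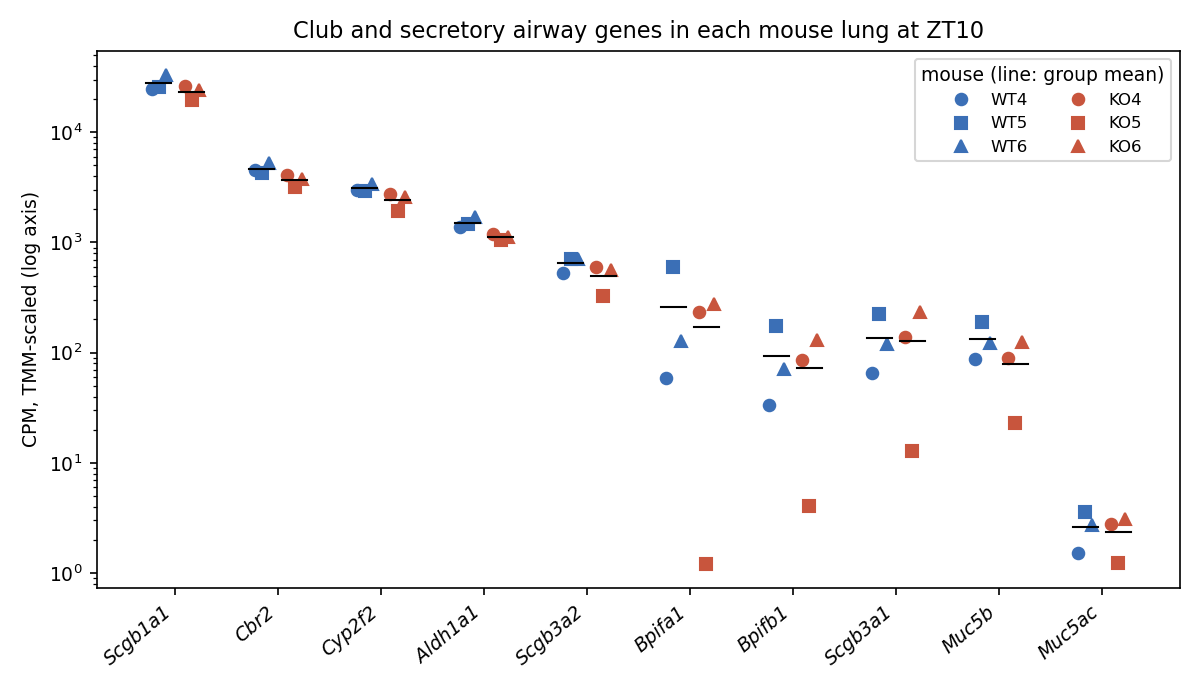
Level of each gene (x axis) in CPM, TMM-scaled, on a log axis (y axis), with 1 point for each of the 3 WT mice (blue) and 3 KO mice (red) and a line at each group mean. The 5 genes on the left lie close together in all mice, and KO5 lies far below the other mice in Bpifa1 (1.22 CPM), Bpifb1 (4.07 CPM) and Scgb3a1 (12.9 CPM).

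Scgb1a1 (ENSMUSG00000024653, chromosome 19 from 9083636 to 9087958 in GRCm38, minus strand) encodes club cell secretory protein, a small secreted dimer that is the classical marker of these cells. It was the most abundant of all genes in each of the 6 libraries and alone took between 1.99% of the counts in KO5 and 3.23% in WT6. It measured 24924, 25989 and 33009.9 CPM in WT4, WT5 and WT6 and 26407, 19547 and 24103 CPM in KO4, KO5 and KO6. The groups overlapped, since KO4 lay above WT4 and WT5. The WT mean was 27974 ± 4393 CPM (SD, n = 3) and the KO mean 23352.5 ± 3491 CPM (SD, n = 3), and the log2 fold change was -0.26, with a 95% interval from -0.63 to 0.11 and an adjusted p of 0.349 in edgeR's quasi-likelihood test. It was -0.13 without WT6, -0.15 without KO5 and -0.01 on the scale of 11 genes of all epithelium. Per kilobase of exon, the scale on which different genes can be compared, the level of Scgb1a1 averaged 53915 CPM per kb over the 6 mice. That of Cbr2, the next of the 10, averaged 3161 CPM per kb, and that of Muc5ac, the lowest, averaged 0.232 CPM per kb.

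Scgb3a2 and Scgb3a1 encode secretoglobins of another branch of the same family, small secreted proteins that airway epithelium releases onto its surface. Scgb3a2 (ENSMUSG00000038791) measured 527, 710.5 and 704 CPM in the WT mice and 599, 327 and 563 CPM in the KO mice. KO4 and KO6 lay inside the WT range, and KO5 lay below it. Its log2 fold change was -0.38, with a 95% interval from -0.92 to 0.16 and an adjusted p of 0.343 (edgeR), and it was -0.16 without KO5 and -0.15 on the scale of all epithelium. Scgb3a1 (ENSMUSG00000064057, chromosome 11 from 49663610 to 49665118, plus strand) followed another course. It measured 65.6, 225 and 119.7 CPM in WT4, WT5 and WT6 and 139, 12.9 and 233 CPM in KO4, KO5 and KO6. The highest and the lowest mouse both carried the deletion, and the groups overlapped over the whole WT range. There were 25.4 counts of Scgb3a2 for each count of Scgb3a1 in KO5, where the other 5 mice had between 2.41 and 8.03. The log2 fold change of Scgb3a1 was -0.10 with a standard error of 0.874, and its sign turned when KO5 was left out, to 0.44, and when WT5 was left out, to 0.46.

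The 3 enzymes among the 10 genes were those whose groups did not overlap. Aldh1a1 (ENSMUSG00000053279, chromosome 19 from 20492715 to 20643465, plus strand) encodes a cytosolic aldehyde dehydrogenase that oxidizes retinal to retinoic acid. It measured 1374, 1477 and 1691 CPM in the WT mice and 1199, 1049.8 and 1127 CPM in the KO mice. All KO mice lay below all WT mice. The WT mean of 1514 ± 162 CPM (SD, n = 3) and the KO mean of 1125 ± 74.6 CPM (SD, n = 3) gave a log2 fold change of -0.43 with a standard error of 0.0944 and an adjusted p of 0.0446 in edgeR's quasi-likelihood test. The two-sided exact permutation test on log2 CPM gave p = 0.1, the smallest that 3 mice against 3 allow. The call of Aldh1a1 was near the threshold: leaving out single mice kept it past the threshold only without KO4. The other 5 fits gave an adjusted p between 0.0775 without WT4 and 0.152 without WT5 (edgeR). Over all genes, 254 passed the adjusted p without WT4 and 1 without WT5, where 1089 did with all 6 mice. Scaled to the summed counts of 11 genes of all epithelium, the log2 fold change of Aldh1a1 was -0.17 with an adjusted p of 0.220 (edgeR), on a scale that moved the median of all genes by 0.27. Reads of Aldh1a1 and of its close paralogue Aldh1a7 can be assigned to either copy, which makes both counts uncertain. Aldh1a7 measured between 93.2 and 152 CPM. A transcript on the opposite strand, C730002L08Rik, overlaps Aldh1a1 and was not analysed here.

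Cyp2f2 (ENSMUSG00000052974, chromosome 7 from 27119909 to 27133660, plus strand) encodes the cytochrome P450 that activates naphthalene in club cells. It measured 3006, 2934 and 3407 CPM in the WT mice and 2742, 1934 and 2601 CPM in the KO mice, without overlap. Its log2 fold change of -0.36 had a 95% interval from -0.69 to -0.04, a p of 0.0343 before and 0.159 after adjustment in edgeR's quasi-likelihood test. An antisense gene inside Cyp2f2, Gm15883, held 125 counts over all libraries. Cbr2 (ENSMUSG00000025150, chromosome 11 from 120729489 to 120732114, minus strand) encodes a carbonyl reductase abundant in mouse lung. It measured 4554, 4298 and 5212 CPM in the WT mice and 4115, 3205 and 3781 CPM in the KO mice, again without overlap. The log2 fold change of Cbr2 was -0.34, with a 95% interval from -0.62 to -0.06 and an adjusted p of 0.129 (edgeR). DESeq2, run as an alternative, placed both genes past the threshold, with adjusted p-values of 0.0376 for Cyp2f2 and 0.0174 for Cbr2, when it called 11.2% of all genes. On the scale of all epithelium the log2 fold changes were -0.11 for Cyp2f2 and -0.09 for Cbr2, neither past the threshold, and without KO5 that of Cyp2f2 was -0.23.

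Counted over the 10 genes, 1 had an adjusted p-value ≤0.05 in edgeR's quasi-likelihood test, and over all 17037 genes tested 6.39% did. None passed the fold threshold of |logFC| ≥1.5 as well, as 0.64% of all genes did. At an unadjusted p ≤0.05 there were 3 of the 10, against 25.5% of all genes. In 3 of the 10 genes, the enzymes Aldh1a1, Cyp2f2 and Cbr2, all KO values lay below all WT values, against 15.6% of all genes tested, and in none did they lie above, where 32.6% of all genes were free of overlap in either direction. The log2 fold change was below 0 in 10 of 10 genes, against 49.4% of all genes, with a median of -0.37 where all genes had a median of 0.00. These directions rested in part on single mice. Without KO5, 7 of 10 remained below 0 and the median was -0.15, and without WT5, 6 of 10 were below 0 with a median of -0.31.

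**Figure D2:**
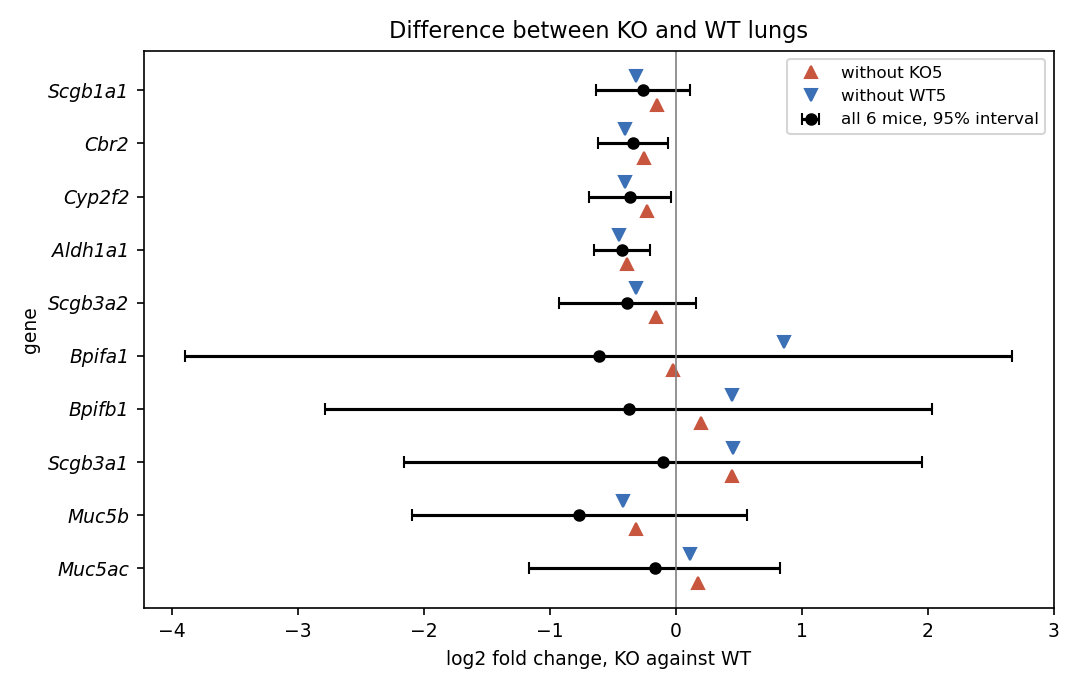
Log2 fold change of KO against WT lungs (x axis) for each gene (y axis), as black points with 95% intervals from the fit of all 6 mice, with triangles for the fits without KO5 (red) and without WT5 (blue). The intervals of Aldh1a1, Cyp2f2 and Cbr2 end below 0, and that of Bpifa1 runs from -3.89 to 2.67.

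Bpifa1 and Bpifb1 encode secreted proteins of the BPI-fold family, which bind lipids and bacterial products in the airway lining fluid. They are near neighbours on the plus strand of chromosome 2, Bpifa1 (ENSMUSG00000027483) from 154142880 to 154149219 and Bpifb1 (ENSMUSG00000027485) from 154190818 to 154220369, with a gap of 41.6 kb. Read counts of Bpifa1 were 1469, 12383 and 3949 for the WT mice and 4817, 58 and 5600 for the KO mice, or 59.1, 593 and 128 CPM and 235, 1.22 and 277 CPM. WT5 stood highest and KO5 lowest, 488-fold apart, and the low value of KO5 came from the deepest library. Bpifb1 measured 33.8, 175 and 71.6 CPM in the WT mice and 85.5, 4.07 and 129.7 CPM in the KO mice. The order of the 6 mice was the same as for Bpifa1, from KO5 through WT4, WT6, KO4 and KO6 to WT5. Among the 10893 genes tested with a mean of at least 10 CPM, the within-group SD of log2 CPM ranked 2 for Bpifa1 and 12 for Bpifb1, at 3.34 and 2.09 where the median gene had 0.09. Between the groups, the log2 fold changes were -0.61 (95% interval -3.89 to 2.67) and -0.37 (95% interval -2.78 to 2.04), with adjusted p-values of 0.830 and 0.862 in edgeR's quasi-likelihood test. At this spread neither a several-fold rise nor a several-fold fall was detectable. Without KO5 the log2 fold change was -0.02 for Bpifa1 and 0.20 for Bpifb1, and without WT5 it was 0.86 and 0.45.

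The promoters of the genes that differed most between mice are shown with those of the steady enzymes Cyp2f2 and Cbr2 for comparison. Those of Aldh1a1, also a steady enzyme, were searched but are not printed. Each window has 250 bases before and 50 after the start of transcription, from RefSeq in the build GRCm38.p6. RefSeq windows were matched for 6 of the 10 genes. Scgb1a1, Muc5b and Muc5ac had none, and Scgb3a2 lies on a chromosome whose windows were left out here. Capitals mark matches on either strand to the FOX word TATTTAC, the related FOX word TGTTTAC, the related FOX word TATTTGC or the related FOX word TGTTTGC, which forkhead factors such as FOXA1 and FOXA2 can bind, to the NKX word CTCAAG, which NKX2-1 can bind, or to the TATA word, spelled TATAAA.
Bpifa1 (chr2:154142630-154142929, plus strand): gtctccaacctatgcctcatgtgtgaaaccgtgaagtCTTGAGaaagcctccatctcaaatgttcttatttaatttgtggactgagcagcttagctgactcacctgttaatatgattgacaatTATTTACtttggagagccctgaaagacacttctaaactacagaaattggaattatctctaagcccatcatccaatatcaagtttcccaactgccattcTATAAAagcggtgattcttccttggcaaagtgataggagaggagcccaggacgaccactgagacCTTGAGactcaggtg
Bpifb1, first start (chr2:154190568-154190867, plus strand): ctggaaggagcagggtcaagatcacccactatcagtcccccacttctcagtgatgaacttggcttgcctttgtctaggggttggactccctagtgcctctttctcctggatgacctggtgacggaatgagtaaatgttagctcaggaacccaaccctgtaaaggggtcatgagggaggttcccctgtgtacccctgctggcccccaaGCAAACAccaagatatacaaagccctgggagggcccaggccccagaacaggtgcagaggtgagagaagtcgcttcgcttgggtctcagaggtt
Bpifb1, second start (chr2:154200130-154200429, plus strand): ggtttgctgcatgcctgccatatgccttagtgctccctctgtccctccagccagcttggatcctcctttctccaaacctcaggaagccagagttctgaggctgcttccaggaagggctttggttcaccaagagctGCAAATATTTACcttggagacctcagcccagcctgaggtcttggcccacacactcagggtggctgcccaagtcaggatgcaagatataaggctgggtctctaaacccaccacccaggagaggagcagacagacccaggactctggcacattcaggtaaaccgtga
Scgb3a1 (chr11:49663345-49663644, plus strand): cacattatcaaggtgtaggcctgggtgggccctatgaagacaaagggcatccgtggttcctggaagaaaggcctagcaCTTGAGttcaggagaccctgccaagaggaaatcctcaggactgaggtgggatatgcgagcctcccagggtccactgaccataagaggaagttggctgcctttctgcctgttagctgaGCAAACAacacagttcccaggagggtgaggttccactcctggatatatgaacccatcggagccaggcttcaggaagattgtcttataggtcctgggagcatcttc
Cyp2f2 (chr7:27119705-27120004, plus strand): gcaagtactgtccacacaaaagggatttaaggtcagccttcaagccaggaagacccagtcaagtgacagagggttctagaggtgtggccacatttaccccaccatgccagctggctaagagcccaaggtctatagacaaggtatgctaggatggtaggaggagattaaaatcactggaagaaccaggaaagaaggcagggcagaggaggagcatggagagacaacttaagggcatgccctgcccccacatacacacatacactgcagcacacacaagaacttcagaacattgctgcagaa
Cbr2 (chr11:120731972-120732271, minus strand): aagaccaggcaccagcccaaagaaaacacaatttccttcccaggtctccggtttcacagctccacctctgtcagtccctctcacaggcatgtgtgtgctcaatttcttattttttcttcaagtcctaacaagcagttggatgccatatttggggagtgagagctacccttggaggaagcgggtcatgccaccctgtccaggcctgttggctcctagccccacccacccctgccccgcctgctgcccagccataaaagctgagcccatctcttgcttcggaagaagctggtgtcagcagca
FOX words were found in 5 of the 8 windows of the 6 genes. These were the windows of Bpifa1 and Scgb3a1, both of Bpifb1 and the second of Aldh1a1, a steady gene. Among the 32851 promoter windows of 300 bases on the chromosomes used, 13.5% held a FOX word. In the second window of Bpifb1 a pair of FOX words on opposite strands overlap. The NKX word was found in Bpifa1 and Scgb3a1 and in 15.9% of all windows, and the TATA word was found in Bpifa1, 29 bases before the start, and in 13.6% of all windows. A match is a description of these letters and not a bound site.

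Muc5b and Muc5ac encode the gel-forming mucins of the airways, Muc5b the one made at rest and Muc5ac the one that rises in goblet cell metaplasia. Both lie on the plus strand of chromosome 7, Muc5ac (ENSMUSG00000037974) from 141788972 to 141819231 and Muc5b (ENSMUSG00000066108) from 141839070 to 141873084, 19.8 kb apart. Muc5b measured 87.1, 191 and 123 CPM in the WT mice and 89.1, 23.0 and 126 CPM in the KO mice. KO5 lay below all other mice, and KO4 and KO6 lay inside the WT range. Its log2 fold change of -0.76 had a 95% interval from -2.09 to 0.57 and an adjusted p of 0.444 (edgeR), and it was -0.32 without KO5. Muc5ac was sparse, at 38, 75 and 84 reads for the WT mice and 57, 59 and 63 reads for the KO mice, or 1.53, 3.59 and 2.72 CPM and 2.79, 1.24 and 3.11 CPM. WT4 and KO5 were the low mice, and the groups overlapped. For each count of Muc5ac there were between 45.2 and 56.9 counts of Muc5b in the WT mice and 32.0, 18.6 and 40.6 in KO4, KO5 and KO6. The repeated sequence of both mucin genes leaves part of their reads hard to place, and that part was not known here.

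**Figure D3:**
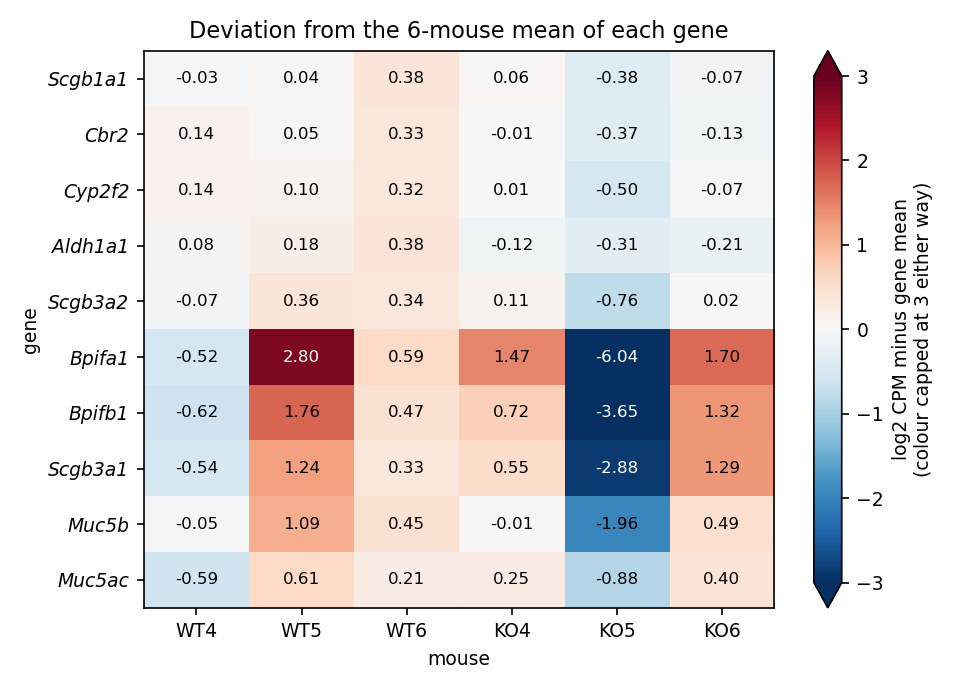
Deviation of log2 CPM from each gene's own mean over the 6 mice (colour, capped at 3 in either direction, with the value in each cell), by gene (y axis) and mouse (x axis). KO5 is below the mean in all 10 genes, with values of -0.38 in Scgb1a1 and -6.04 in Bpifa1, and WT5 is at 2.80 in Bpifa1.

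Other genes followed these courses closely. Likeness was measured as the root mean square difference between the log2 CPM of 2 genes over the 6 mice, each centred on its own mean, among 10884 other genes. Nearest to Scgb1a1 were Drc1, which encodes a part of the dynein regulatory complex of motile cilia, at a difference of 0.0283, followed by Rnf186, Spa17, Cep126 and Gsta4, at up to 0.0490. Drc1 was also in the list of ciliated cell genes and measured 33.3, 33.0 and 42.2 CPM in the WT mice and 34.2, 24.5 and 31.3 CPM in the KO mice. Nearest to Scgb3a2 were Ptprz1, Cxcl17 and Smim5, at differences between 0.0542 and 0.0825. Nearest to Bpifa1 were Nppa, Reg3g and Ltf, at differences between 1.25 and 1.62, which is loose beside the others but smaller than the 2.89 by which Bpifa1 itself departed from its mean. Reg3g, which encodes an antibacterial lectin, measured 5.96, 52.7 and 15 CPM in the WT mice and 26.2, 1.66 and 54.7 CPM in the KO mice. Ltf, which encodes lactoferrin, measured 10.4, 98.7 and 23.4 CPM in the WT mice and 38.1, 4.64 and 59.7 CPM in the KO mice. Both had KO5 as the lowest mouse and WT5 and KO6 as the highest pair, like Bpifa1, Bpifb1 and Scgb3a1. Among the 10 genes themselves, Cyp2f2 and Cbr2 were the most alike, at 0.0618, and Bpifa1 and Aldh1a1 the least, at 2.78.

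Genes with related roles were counted in lists. Of 29 genes for xenobiotic and carbonyl metabolism, all tested, 2 fell in the KO mice in edgeR's quasi-likelihood test, against 2.67% of all genes, and none rose, against 3.72% of all genes. The median log2 fold change was -0.13, or -0.05 without KO5, and DESeq2 called 4, against 11.2% of all genes. Cyp2b10, a P450 induced by foreign compounds, measured 412, 426 and 476 CPM in the WT mice and 346, 328 and 352 CPM in the KO mice (log2 fold change -0.36, standard error 0.0701, adjusted p = 0.0345, edgeR). Cyp4b1, a P450 abundant in lung, measured 635, 645 and 642 CPM in the WT mice and 504, 506 and 569 CPM in the KO mice (log2 fold change -0.28, standard error 0.0646, adjusted p = 0.0485, edgeR). In both genes the groups did not overlap. Neither passed when KO5 or WT5 was left out, since 0 of the 29 genes did in edgeR's quasi-likelihood test. At an unadjusted p ≤0.05 there were 6 of the 29 genes with all mice, against 25.5% of all genes. There were 5 without KO5 and 8 without WT5, where the share of all genes is not given here. Over all genes, 933 passed the adjusted p without KO5 and 1 without WT5, where 1089 did with all mice. Scaled to all epithelium, 7 of the 29 genes were below 0 in place of 24, and none passed, with 2 at an unadjusted p ≤0.05.

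Of 8 tested among 9 other markers of club cells, 7 had a log2 fold change below 0 and none passed in edgeR's quasi-likelihood test, where 4 had an unadjusted p ≤0.05, against 25.5% of all genes, and DESeq2 called 2, against 11.2%. The median of this list was -0.25, or -0.15 without KO5 and 0.01 with 4 of 8 below 0 on the scale of all epithelium, and the largest difference was in Gabrp, a GABA receptor subunit, at -0.45. Of 16 regulators of airway epithelium, among them Nkx2-1, Foxa1, Foxa2 and Sox2, 14 were below 0 with a median of -0.18, and 6 with a median of 0.08 on the scale of all epithelium. None passed in edgeR's quasi-likelihood test, 3 of the 16 had an unadjusted p ≤0.05, against 25.5% of all genes, and DESeq2 called 1, against 11.2%. The largest difference was in Elf3, at -0.32. Of 20 airway host defence genes 10 were tested, and 5 of these were below 0. None passed in edgeR's quasi-likelihood test, where Hp, which encodes haptoglobin, came nearest at a log2 fold change of -0.50. Of the 10 tested, 1 had an unadjusted p ≤0.05, against 25.5% of all genes, and DESeq2 called 1, against 11.2%. Without KO5, 3 of the 10 were below 0 with a median of 0.21, and 1 passed as higher in the KO mice. Of 23 genes of mucin production and mucous metaplasia 13 were tested, and 7 of these were below 0. Their median was -0.12, or 0.18 without KO5. None passed in edgeR's quasi-likelihood test or in DESeq2, and 1, lower in the KO mice, had an unadjusted p ≤0.05, against 25.5% of all genes. Clca1, a goblet cell gene, had the largest difference, 1.09 with a standard error of 1.16, from values between 0.04 CPM in WT4 and 3.51 CPM in KO6.

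Marker genes of other cells moved with the same mice. Summed over its list and set against the WT mean, KO5 stood at 67.7% for the 10 genes, 77.7% for 16 ciliated cell genes, 74.1% for 11 genes of all epithelium, 75.4% for 10 type 2 alveolar genes and 85.6% for 9 type 1 alveolar genes. KO4 and KO6 stood at 92.3% and 85.4% for the 10 genes and at 94.1% and 83.9% for all epithelium. The 10 B cell genes stood at 751% in KO5 and at 183% and 215% in KO4 and KO6, and the 12 monocyte genes at between 103% and 123% in the KO mice. Single abundant genes weighed on some of these sums, and the sums without each list's most abundant gene were added after the values were seen. Without Ace, which made up 83.2% of the monocyte sum in the WT mice, the other 11 monocyte genes stood at 171%, 153% and 209% in KO4, KO5 and KO6. Without Sec14l3, 66.0% of the ciliated sum, the other 15 ciliated genes stood at 67.0% in KO5, and without Scgb1a1, 72.5% of the sum of the 10 airway genes, the other 9 stood at 61.9%. Their part in the differences of the airway genes was not tested. On the scale of all epithelium, the median of the 10 genes was -0.13, with 8 of 10 below 0 and none past the threshold in edgeR's quasi-likelihood test, at an unadjusted p ≤0.05 in 0 genes. DESeq2 on its own scale called 3 of the 10, against 11.2% of all genes. On the scale of the ciliated genes, which moved the median of all genes by 0.17, the median was -0.24 with 10 of 10 below 0 and none past the threshold, with 2 at an unadjusted p ≤0.05. This scale used the sum of all 16 ciliated genes and so rested mostly on Sec14l3. A scale without Sec14l3 was not tried, so how far the 10 genes differ from the other ciliated genes was not tested.

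Markers of the wall of large airways were sparse. Of 11 cartilage genes 10 were in the table and 4 were tested, with sums between 5.38 and 7.32 CPM. Col11a2 alone made up 63.0% of the cartilage sum in the WT mice. Krt5 and Krt15, which mark basal cells, measured 2.30 and 5.46 CPM in WT5, the mouse with the most Bpifa1, and at most 0.395 and 1.38 CPM in the other 5 mice. In KO5, the mouse with the least Bpifa1, Krt5 had 0 counts, which allows up to 0.0629 CPM, and Krt15 was at 0.0629 CPM. The rest of the 5 basal cell genes took other courses. Dapl1 was highest in KO5 (1.01 CPM), Trp63 in KO6 (1.58 CPM) and Krt14 in WT6 (0.453 CPM). Sums over the 5 genes were 1.33, 9.63 and 1.46 CPM in the WT mice and 2.88, 2.12 and 3.75 CPM in the KO mice. The share of these low counts in the spread of the secretory genes was not tested.

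**Figure D4:**
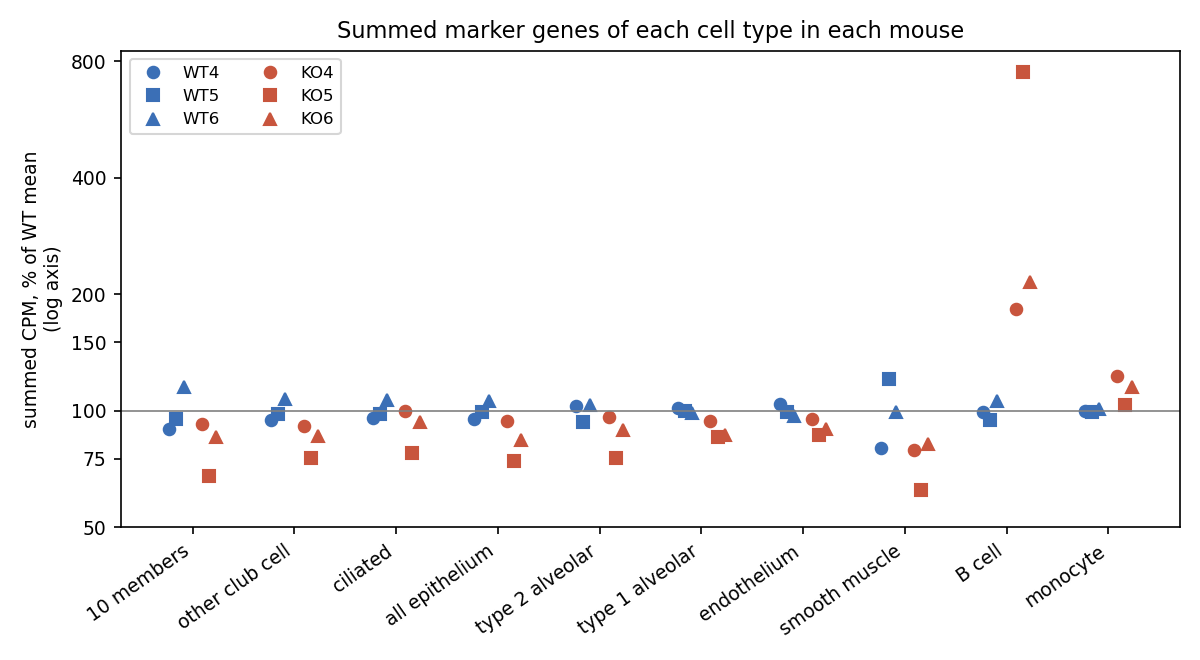
Summed CPM of the marker genes of each cell type as a percentage of the WT mean (y axis, log axis), for each mouse (points, WT blue and KO red). Among the lists plotted, KO5 lies between 62.5% and 86.4% in other club, ciliated, all epithelium, alveolar, endothelium and smooth muscle, at 67.7% in the 10 airway genes and at 751% in the B cell list.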

How the data were processed

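Lung RNA of 3 WT and 3 Zpbp2 KO mice collected at ZT10 was analysed, with 1 library per mouse; each column was assigned to its mouse by name. According to the study's methods and processing notes, the authors trimmed the reads (Trimmomatic 0.36), aligned them to GRCm38 with STAR 2.5.3a and counted them per gene with HTSeq 0.6.0; Picard 2.9.0 is listed too. The values they deposited are whole read counts without normalization. The annotation release and the strand setting of the counting are not given in the sources used here. Positions and exon lengths came from GENCODE mouse release M21, which placed 46488 of 47069 genes.

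KO and WT mice were compared with edgeR 4.0.16 in R 4.3.3 by the quasi-likelihood test with TMM factors, filterByExpr (minimum count 10, minimum total count 15), no covariates, and Benjamini-Hochberg adjustment over 17037 genes. Intervals are 95% intervals of the fitted log2 fold change, and log2 CPM used a prior count of 2. Levels per kilobase used the union of exons. DESeq2 1.42.0 and other alternatives are named with their effects in the closing section. The fit was also run on simulated data, and the outcome is not given here. Figures were drawn with Matplotlib 3.10.9. P-values measure the spread between these mice.

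The 10 genes and the other gene lists were chosen with earlier results of these data known. Outside the 10 genes, those named are the members of a list with an adjusted p-value ≤0.05 (at most 4), or else the one with the largest change, and the genes nearest to Scgb1a1 (5), Bpifa1 (3) and Scgb3a2 (3). Krt5, Krt15 and the other basal cell genes, Ddx3y, Aldh1a7 and the promoters and motifs shown were chosen after values were seen.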

Additional observations from a re-analysis of the deposited data

How the results depend on the processing

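The 10 genes were refitted under 16 alternatives. Scgb1a1, Scgb3a2, Cyp2f2, Aldh1a1, Cbr2 and Muc5b kept a log2 fold change below 0 in all 16. The sign turned for Bpifa1 without WT5 (0.86), for Bpifb1 without WT5 (0.45) and without KO5 (0.20), for Scgb3a1 without WT5 (0.46), without KO5 (0.44) and on the scale of all epithelium (0.11), and for Muc5ac in the same 3 settings (0.12, 0.18 and 0.077). With each mouse left out in turn, log2 fold changes ran from -1.15 to 0.86 for Bpifa1, -1.10 to 0.45 for Bpifb1, -0.87 to 0.46 for Scgb3a1 and -0.44 to 0.18 for Muc5ac. None of these values was past the threshold, and the cause was not tested. The number of the 10 genes with an adjusted p-value ≤0.05 was 3 with DESeq2, 0 with upper-quartile factors, 0 on the scale of all epithelium and 0 on that of the ciliated genes, and between 0 and 1 with each mouse left out, with 1 only without KO4. In the related lists together, where 2 genes were called, the number was 8 with DESeq2, 6 with edgeR's exact test, 6 with no filter, 4 with at least 10 counts in every library, 1 with upper-quartile factors, 0 on both scales, and between 0 and 5 with each mouse left out. These lists had 29, 10, 13, 16 and 8 genes tested in the main fit. Over all genes, 6.39% were called in the main fit and 11.2% with DESeq2. The exact test called 1486 of 17037 genes, no filter 1401 of 28625, and at least 10 counts in every library 1125 of 15986. Upper-quartile factors called 1116 genes, the epithelium scale 1285 and the ciliated scale 543. With each mouse left out, between 1 and 1278 genes were called. Over all genes, 109 were past both thresholds. This number was 211 with no filter, 203 with edgeR's exact test, 169 with DESeq2, 315 on the scale of all epithelium, 184 on the ciliated scale, 1089 with no fold threshold, and between 1 without WT5 and 214 without KO4 with each mouse left out. The shared numbers 4, 5 and 6 were not used as pairs in the main fit. Deviations of same-numbered mice from their group means correlated at -0.03, -0.15 and -0.02 across genes. Those of mice with unlike numbers correlated at between -0.23 (WT4 and KO6) and 0.26 (WT5 and KO6). Deviations of 3 mice sum to 0 in each group, so these correlations depend on each other and cannot show whether the numbers mark pairs. With the number as a replicate block, 14 genes were past both thresholds. Of all 17037 genes, 66 had an adjusted p-value ≤0.05 in that fit, where 1089 did in the main fit. Among these were 0 of the 10 genes, 0 of the related lists, 3 monocyte genes, 0 endothelial genes and 0 type 1 alveolar genes. The adjusted p of Aldh1a1 was 0.103 in edgeR's quasi-likelihood test with this block. Depth limits Muc5ac, with 38 to 84 counts per mouse, and the basal cell genes.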

Other observations

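Nppa, which encodes atrial natriuretic peptide and is made by heart muscle, was the gene nearest to Bpifa1 in its course over the 6 mice. It measured 6.4, 32.2 and 3.69 CPM in WT4, WT5 and WT6 and 2.79, 0.105 and 30.8 CPM in KO4, KO5 and KO6, so that WT5 and KO6 were high and KO5 was lowest. Smooth muscle genes, which the walls of airways and vessels share, also had KO5 as their lowest mouse and WT5 as their highest. The 7 genes of that list summed to 587, 887 and 725 CPM in the WT mice and 580.2, 458 and 601 CPM in the KO mice. All 7 had a log2 fold change below 0, with a median of -0.54 and with Cnn1, a calponin of contractile fibres, furthest at -0.98. None of the 7 passed in edgeR's quasi-likelihood test, 6 had an unadjusted p ≤0.05, against 25.5% of all genes, and DESeq2 called 5, against 11.2%. At an unadjusted p ≤0.05 there were 3 without KO5 and 1 without WT5.

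The lists of other cell types gave these calls in edgeR's quasi-likelihood test. Over all 17037 genes, this test called 3.72% as higher and 2.67% as lower, and 25.5% had an unadjusted p ≤0.05 in it. DESeq2 called 11.2% and edgeR's exact test called 1486 genes. Of 12 monocyte genes 10 rose, led by Adgre4 (2.31 on the log2 scale), Cd300e (2.02), Treml4 (1.76) and Ms4a4c (1.58), against 3.72% of all genes. The number that passed was 0 without WT5, with 10 at an unadjusted p ≤0.05, and 9 without KO5. Over all genes, 1 passed the adjusted p without WT5 and 933 without KO5, where 1089 did with all mice. Marco rose (1.26) as 1 of 10 alveolar macrophage genes tested. Cldn5 fell (-0.31) as 1 of 8 endothelial genes, where DESeq2 called 3, and the list had 0 calls without KO5 and 0 without WT5, with 2 and 3 at an unadjusted p ≤0.05. Rtkn2 fell (-0.40) as 1 of 9 type 1 alveolar genes, where DESeq2 called 4, and the list had 0 calls without WT5, with 4 at an unadjusted p ≤0.05. None of the 10 B cell genes passed, although all 10 were higher in the KO mice at an unadjusted p ≤0.05, Pax5 by most at 2.22. DESeq2 called 8 and edgeR's exact test 10. Without KO5, the mouse with the highest B cell sum, 9 passed and the median was 0.99 in place of 1.90. None of the 11 genes of all epithelium passed, with 5 at an unadjusted p ≤0.05 and 4 called by DESeq2 (Krt8, -0.48). None of the 16 ciliated cell genes passed, with 1 at an unadjusted p ≤0.05 and 1 called by DESeq2 (Foxj1, -0.47). None of the 10 type 2 alveolar genes passed, with 2 at an unadjusted p ≤0.05 and 2 called by DESeq2 (Sftpd, -0.40). The neuroendocrine list had 4 genes tested, 1 at an unadjusted p ≤0.05 and 0 called by either tool (Calca, -1.43). The basal cell (2 tested, Krt15, -1.25), cartilage (4 tested, Comp, 0.61) and squamous oesophagus (1 tested, Sbsn, -0.03) lists had 0 genes at an unadjusted p ≤0.05 and 0 called by either tool.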
